A study of Mus musculus with 38 samples.

Results

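The expression of 10 mouse genes of fibroblast growth factor (FGF) signalling was followed through the conversion of mouse embryonic fibroblasts (MEFs) by transcription factors. They are the 4 ligand genes Fgf4, Fgf8, Fgf5 and Fgf2, the 2 receptor genes Fgfr1 and Fgfr2, and the 4 genes Spry2, Spry4, Dusp6 and Etv5, which are known targets and feedback regulators of the ERK kinases. The genes were chosen by name, and all 10 are listed in both bulk expression tables (35976 and 37108 genes) and in the count table of cells.

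FGF ligands are secreted proteins that bind receptor tyrosine kinases on the same or a neighbouring cell. The receptors pass the signal through RAS, RAF and MEK to the ERK kinases, and ERK activity switches on genes that dampen the pathway again. The Sprouty proteins (Spry2, Spry4) act upstream of RAF, DUSP6 removes the activating phosphates from ERK, and ETV5 is an ETS-family transcription factor induced by FGF. In the inner cell mass of the mouse embryo, FGF4 comes from epiblast precursors and steers neighbouring cells that carry FGF receptors towards primitive endoderm (PrE). FGF5 is a classic marker of the epiblast after implantation, and FGF8 patterns the gastrulating embryo.

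The cells were E13.5 MEFs from crosses of OG2 and 129S4/SvJaeJ mice, infected with retroviruses that carried the factors. JGES stands for Jdp2, Glis1, Esrrb and Sall4, JGE lacks Sall4, JGEO has Oct4 in place of Sall4, and JGESO has all 5. All factor sets were cultured in the medium iCD3, which holds basic FGF (the FGF2 protein), mLIF, CHIR99021 and inhibitors of chromatin modifiers, so an FGF was supplied to every culture in iCD3. This medium replaced serum medium after infection, so the day 0 library may precede it. BMP4+ cultures received BMP4 at 10 ng/ml, and BMP4− cultures did not. Other MEFs received only SALL4-WT or SALL4-delN12, a form without the 12 N-terminal residues that bind the NuRD complex, in iCD3 without BMP4. Of 38 samples, 23 were bulk RNA-seq libraries. JGES cells were taken at day 0 and, in both kinds of culture, at days 1, 3, 5 and 7, the other factor sets in both kinds of culture at day 7, and each SALL4 form at days 1, 5, 9 and 11. In the JGES library labelled day 0, Sall4 stood at 650, Jdp2 at 375 and Esrrb at 240 FPKM, while Glis1 was 0.450 FPKM there and at most 1.13 FPKM in the later JGES libraries. The other samples were 2 scRNA-seq samples, 9 ATAC-seq libraries and 4 Cut&Tag samples.

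Every condition had 1 deposited sample, so no comparison of 1 library with another has a replicate error. Where libraries of both conditions were matched by day, the mean difference over the 4 days was tested with limma on log2(FPKM+1) with the day as a block, across all genes at 1 FPKM or more in any of the 8 libraries, a test chosen after seeing the data. It asks whether the difference is steady over days, and libraries of a course may come from the same culture, so its p-values cover the spread between days only. A bulk difference at a single day is given as the difference of log2(FPKM+1), where FPKM are fragments scaled by gene length and library size, and a gene is counted when it differs by more than 1 on that scale (2-fold). Only genes at 1 FPKM or more in either library were counted. Bulk values cannot tell fewer expressing cells from less RNA per cell. Among low genes, the FPKM values stepped in whole fragments, which gave the relative depth of the libraries. The SALL4-alone libraries were 5.70 to 7.44 times and the JGE, JGEO and JGESO libraries 5.31 to 7.34 times as deep as JGES at day 7 without BMP4, and the other JGES libraries 1.07 to 1.21 times. The 63 ligand values above 0 lay within 0.01 of a whole step or of the midpoint between steps, and fragment numbers below are steps of the lowest value, which was taken as 1 fragment. A ligand listed at 0 in a JGES library was therefore read at less depth than one listed at 0 in the other libraries.

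By the GENCODE vM21 annotation of mm10, Fgf4 lies at chr7:144847367-144865243 on the plus strand, Fgf8 at chr19:45736798-45742915 on the minus strand, Fgf5 at chr5:98254184-98277030 (plus) and Fgf2 at chr3:37348346-37410108 (plus). Fgfr1 lies at chr8:25513654-25575718 (plus), Spry2 at chr14:105891947-105896819 (minus), Dusp6 at chr10:99263231-99267489 (plus) and Etv5 at chr16:22381309-22439719 (minus). Fgfr2 spans chr7:130162451-133123350 on the minus strand because 1 of its 4 coding starts lies far upstream, beside Ctbp2. Fgf2 overlaps Fgf2os, Gm42923 and Nudt6 on the opposite strand and Gm43439 on its own strand. Fgfr1 overlaps Gm16159, and Spry4 overlaps Gm27369 and Gm27804, all on the opposite strand. Reads at these places could be shared between genes. Of the 10 genes, 7 have an entry in the RefSeq promoter table (GRCm38.p6, 250 bases before to 50 after the start). The upstream 250 bases are shown for 3 genes whose chromatin or RNA differences are described below, 5′ to 3′ on the gene's strand, with matches to the motifs searched in capitals.
Fgf4, chr7:144861136-144861385: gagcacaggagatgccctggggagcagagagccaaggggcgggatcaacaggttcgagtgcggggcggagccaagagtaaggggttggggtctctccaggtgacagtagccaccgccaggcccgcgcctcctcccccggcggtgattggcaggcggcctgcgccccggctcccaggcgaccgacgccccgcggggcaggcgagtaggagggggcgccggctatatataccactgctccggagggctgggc
Spry2, chr14:105896820-105897069: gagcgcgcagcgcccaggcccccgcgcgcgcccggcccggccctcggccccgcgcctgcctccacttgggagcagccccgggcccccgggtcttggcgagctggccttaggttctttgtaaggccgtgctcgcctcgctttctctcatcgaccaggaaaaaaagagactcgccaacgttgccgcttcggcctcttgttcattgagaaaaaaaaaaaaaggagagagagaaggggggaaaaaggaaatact
Dusp6, chr10:99262981-99263230: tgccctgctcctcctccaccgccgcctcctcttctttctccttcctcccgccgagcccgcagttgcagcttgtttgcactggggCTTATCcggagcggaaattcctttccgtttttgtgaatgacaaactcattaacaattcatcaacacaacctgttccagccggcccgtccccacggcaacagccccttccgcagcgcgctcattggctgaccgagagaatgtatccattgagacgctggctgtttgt

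Searched on both strands were the ETS motif CCGGAA, the AP-1 motif TGANTCA, the SALL4 motif AATATT, the GATA motif GATAAG and the octamer motif ATGCAAAT, none of which overlaps another in these stretches. The capitals in the Dusp6 sequence mark a GATA match read on the other strand, at -166 from the start, and the Fgf4 and Spry2 stretches hold no match. Over all 32851 promoters of the table, 7.44% held a GATA match and 14.9% an ETS match. The 300-base promoters were rich in CpG, with 28 CpG and 69.7% GC for Fgf4, 28 and 62.7% for Spry2 and 19 and 57.3% for Dusp6, against a median of 7 and 52.7% over the table. A match is a description of the letters and not a bound site.

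In JGES cells, Fgfr2 was past 2-fold higher with BMP4 at days 1 and 3, Etv5 was lower from day 3, and Fgf4 and Fgf8 were lower and Fgfr1 higher at days 5 and 7. Without BMP4, Fgf4, Fgf8 and Etv5 were higher at days 5 and 7 than at day 0. On these days with BMP4, Fgf4 and Fgf8 were low, Etv5 was lower than without BMP4, and Fgfr1 was higher. Fgf4 was listed at 0 FPKM at days 0 and 1, and was 0.456, 6.96 and 17.5 FPKM at days 3, 5 and 7 without BMP4. With BMP4 it was listed at 0 at days 1 and 3, and was 0.231 and 0.463 FPKM at days 5 and 7. These stand for about 33.5 fragments against 1 at day 5 and 69.5 against 2 at day 7. The ratio was 30.2-fold lower with BMP4 at day 5 (95% counting interval 5.14 to 1245) and 37.7-fold lower at day 7 (10.1 to 320), which covers counting error only.

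Fgf8 peaked earlier. Without BMP4 it was listed at 0 at days 0 and 1, then stood at 0.504, 5.04 and 1.67 FPKM at days 3, 5 and 7. With BMP4 it was 0.254 FPKM at day 5 and listed at 0 on the other days, a ratio at day 5 of 19.8-fold lower (3.20 to 818) from 1 fragment against 22. The day 7 values rest on about 6 fragments without BMP4 and 0 with BMP4, where 3 fragments would be 0.767 FPKM. The highest Fgf8 level of the course thus came at day 5, when Fgf4 had not reached its own highest level. Fgf5 was low throughout, with 1.21 FPKM at day 0 and at most 0.304 without and 0.560 with BMP4 afterwards. Fgf2 was listed at 0 in all 9 JGES libraries, where 3 fragments would be 0.977 to 1.18 FPKM.

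The receptors differed the other way. Fgfr1 was 40.8 FPKM at day 0 and 18.0 without and 16.1 with BMP4 at day 1. It was then 28.4, 26.5 and 26.3 FPKM at days 3, 5 and 7 without BMP4, and 34.9, 58.7 and 67.5 with BMP4. The cultures thus parted after day 3, with a difference of 1.12 at day 5 and 1.33 at day 7 on the log2 scale. Fgfr2 was 19.9 FPKM at day 0, 2.54 to 3.07 on the later days without BMP4 and 5.39 to 7.96 with BMP4. It was higher with BMP4 at each of the 4 days, by 1.05, 1.24, 1.00 and 0.65 on the log2 scale, and it was the first of the 10 genes past 2-fold.

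Among the feedback genes, Etv5 differed most. It was 13.6 FPKM at day 0 and 27.3, 52.2, 52.8 and 61.0 at days 1, 3, 5 and 7 without BMP4, against 23.8, 22.8, 17.4 and 15.3 with BMP4, so that the log2 difference went from -0.19 at day 1 to -1.16, -1.55 and -1.93. Dusp6 was 50.7 FPKM at day 0 and 23.1 without and 21.4 with BMP4 at day 1. It then reached 42.8, 59.5 and 62.7 FPKM without BMP4 and 25.4, 29.98 and 34.5 with BMP4, differences of -0.73, -0.97 and -0.84 that stayed inside 2-fold. Spry2 stood at 16.3 FPKM at day 0 and at 32.6, 41.8, 31.9 and 38.0 without BMP4 against 32.5, 22.3, 20.6 and 18.2 with BMP4, past 2-fold only at day 7 (-1.02), and not there with each library scaled to a median difference of 0. Spry4 peaked at day 1 in both cultures, at 43.5 FPKM without and 37.0 with BMP4, and was 18.1 and 14.5 at day 7. Dusp6 and Spry4 thus passed 2-fold with BMP4 on no day, and Spry4 ended close to its day 0 level of 16.8 FPKM in either culture.

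**Figure D1:**
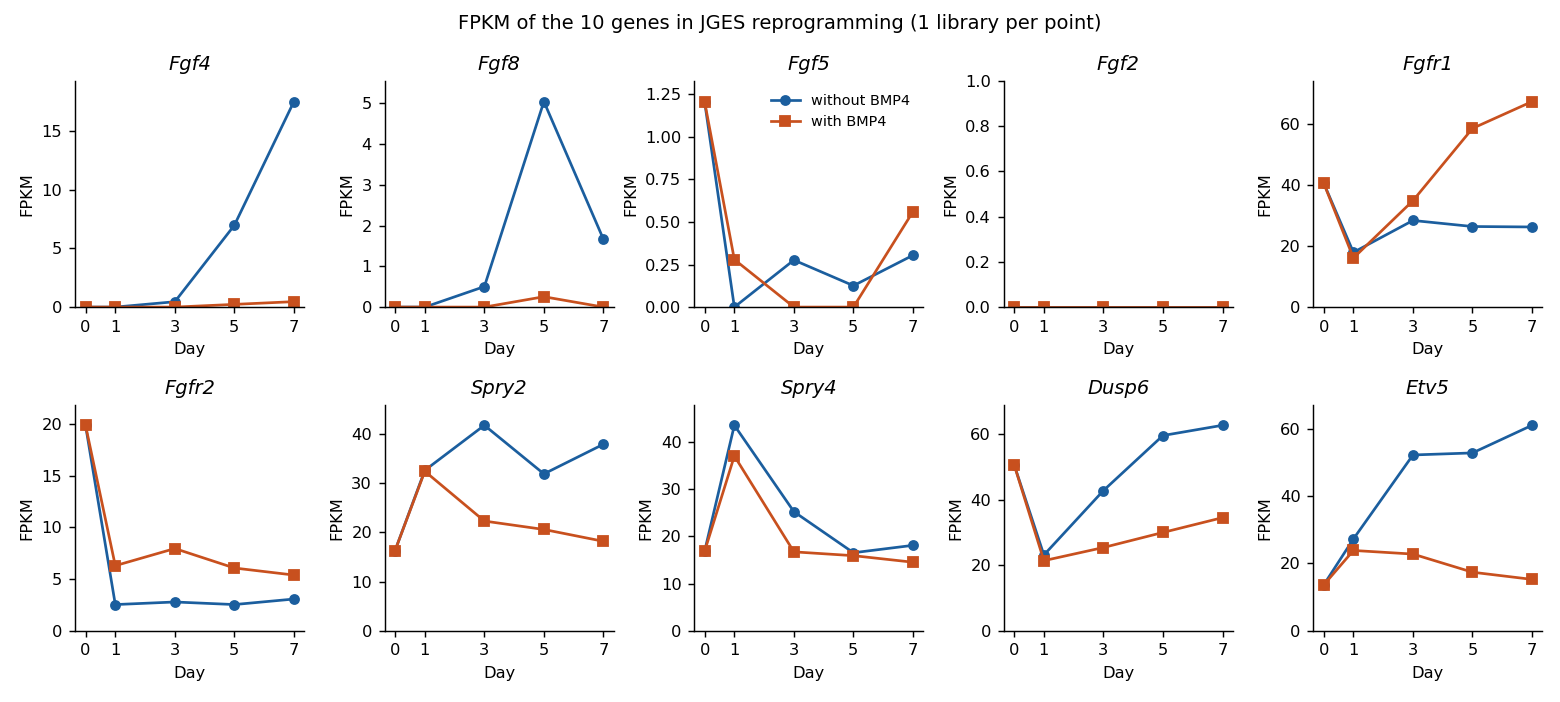
FPKM of the 10 genes (y axis, linear, own scale per panel) against the day of JGES reprogramming (x axis), without BMP4 (blue circles) and with BMP4 (orange squares), 1 library per point and the same day 0 library in both lines. Fgf4, Fgf8, Etv5 and Dusp6 lie lower with BMP4 from day 3, Fgfr1 lies higher, and Fgf2 is listed at 0 throughout.

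Counted over the 10 genes, 1 of 6 passed 2-fold at day 1 (Fgfr2, higher), where 3.75% of all genes tested were higher and 5.72% lower. At day 3, 2 of 6 passed (Fgfr2 higher, Etv5 lower), beside 6.81% of all genes higher and 8.99% lower. At day 5, 4 of 8 passed (Fgfr1 higher, Fgf4, Fgf8 and Etv5 lower), where 8.78% of all genes were higher and 13.2% lower. Fgfr2 (higher) passed there too with a pseudocount of 0.1 or with each library scaled to a median difference of 0. At day 7, 5 of 8 passed (Fgfr1 higher, Fgf4, Fgf8, Spry2 and Etv5 lower), beside 10.3% of all genes higher and 13.8% lower. The median difference over the genes tested was -0.93 at day 7, against -0.14 over all genes. Without BMP4, 5 of 9 genes differed between day 7 and day 0, with Fgf4, Fgf8, Spry2 and Etv5 higher and Fgfr2 lower, beside 22.2% of all genes higher and 10.4% lower, and Spry2 did not pass with each library scaled to a median difference of 0. With BMP4, 1 of 7 did so (Fgfr2 lower), beside 17.5% of all genes higher and 9.47% lower. Both courses share the day 0 library. Over the 4 days with the day as a block, 0 of 8 genes had an adjusted p under 0.05 (limma, where 0.346% of all genes were called higher and 0.223% lower), and 7 had an unadjusted p under 0.05, as did 20.6% of all genes. Fgfr2 was closest, with a mean difference of 0.98 (95% interval 0.52 to 1.45, limma adjusted p = 0.0782, higher on 4 of 4 days). Etv5 followed with -1.21 (-1.85 to -0.56, limma adjusted p = 0.0960, lower on 4 of 4 days). Without day 1, Spry2, Dusp6 and Etv5 were called lower, beside 3.36% of all genes called higher and 3.94% lower.

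Cell type markers moved with these differences. The summed FPKM of 5 pluripotency markers (Nanog, Zfp42, Dppa5a, Tdgf1 and Dppa4) was 0, 3.74, 24.3, 349 and 721 at days 0, 1, 3, 5 and 7 without BMP4, and 1.75, 0.602, 1.94 and 27.1 at days 1 to 7 with BMP4. At day 7 none of the 5 was at 0 in either culture. The summed FPKM of 6 PrE markers (Gata4, Sox17, Foxa2, Dab2, Pth1r and Lama1) was 29.6 at day 0. It was 8.46, 19.2, 36.8 and 71.8 at days 1 to 7 without BMP4, and 10.5, 9.86, 23.9 and 156 with BMP4. The sum was thus higher with BMP4 at days 1 and 7 and lower at days 3 and 5. The number of these markers at 1 FPKM or more was 3 at day 0. It was 2, 3, 6 and 6 at days 1 to 7 without BMP4 and 4, 3, 5 and 6 with BMP4, so the early sums rest on some of the 6 only. The 6 fibroblast markers summed to 1618 FPKM at day 0, to 649, 236, 110 and 126 at days 1 to 7 without BMP4 and to 647, 503, 616 and 957 with BMP4, so that at days 5 and 7 they were higher in the same culture as Fgfr1. The 6 placenta-like markers summed to 85.8 FPKM without and 239 with BMP4 at day 7. The part of the mix of cells in the differences of Fgf4, Fgfr1, Etv5 and the other genes was not tested in the bulk libraries.

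The response to BMP4 was then compared among 4 factor sets at day 7 in the table of 8 libraries, to see whether the genes differed without Sall4 or with Oct4. With Oct4 in the set, Fgf4 was present with and without BMP4. Fgf4 was listed at 0 in both JGE libraries, where 3 fragments would be 0.125 and 0.139 FPKM. It was 6.42 FPKM without and 9.54 with BMP4 in JGEO, 11.1 and 10.9 in JGESO, and 17.04 and 0.453 in JGES. The JGES values of this table are a median 0.975 and 0.978 of those above, so they are not further samples. JGES was thus the set in which Fgf4 was low with BMP4, and JGE the set in which it was not detected at all. Fgf8 was listed at 0 without and 0.255 FPKM with BMP4 in JGE, 0.996 and 0.553 in JGEO, 0.958 and 2.23 in JGESO, and 1.62 and 0 in JGES.

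Etv5 stood highest in JGEO, at 98.4 FPKM without and 102 with BMP4. It was 34.8 and 40.6 FPKM in JGE, 60.2 and 38.2 in JGESO, and 59.5 and 14.9 in JGES. Dusp6 was 82.3 FPKM without and 35.0 with BMP4 in JGE, a difference of -1.21, and 61.1 and 57.7 in JGEO, 40.5 and 45.0 in JGESO and 61.1 and 33.7 in JGES. Of the 4 feedback genes, Dusp6 alone was past 2-fold in JGE, the set without Fgf4 fragments. Spry4 was 44.8 FPKM without and 28.8 with BMP4 in JGE and between 14.2 and 25.2 in the other 6 libraries. Spry2 was 24.0 and 22.4 FPKM in JGE, 36.0 and 37.1 in JGEO, 32.3 and 28.4 in JGESO and 37.0 and 17.8 in JGES.

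Fgfr1 was 37.6 FPKM without and 29.7 with BMP4 in JGE, 39.5 and 30.9 in JGEO, 46.0 and 58.0 in JGESO, and 25.6 and 66.0 in JGES. It was lower with BMP4 in the sets without Sall4 and higher in the sets with Sall4, past 2-fold in JGES alone. The 6 fibroblast markers went the same way, with sums of 1290 FPKM without and 703 with BMP4 in JGE, 933 and 698 in JGEO, 634 and 1031 in JGESO, and 123 and 936 in JGES, and their part in the Fgfr1 differences was not tested. Fgfr2 was 11.9 and 11.6 FPKM in JGE, 9.65 and 7.89 in JGEO, 4.98 and 6.11 in JGESO, and 2.99 and 5.27 in JGES, which puts the sets with Sall4 lowest. Fgf5 was 0.955 FPKM without and 0.531 with BMP4 in JGE and at most 0.548 in the other libraries, and Fgf2 was at most 0.145.

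Past 2-fold with BMP4 were 1 of 6 genes in JGE (Dusp6 lower; 4.28% of all genes higher, 4.78% lower), 0 of 7 in JGEO (2.26% and 1.95%) and 0 of 8 in JGESO (5.29% and 3.52%). The 5 pluripotency markers summed to 0.253 and 0.373 FPKM without and with BMP4 in JGE, 202 and 380 in JGEO, 284 and 194 in JGESO, and 702 and 26.5 in JGES, so Fgf4 was listed at 0 or low in the libraries where they were low. Without BMP4, JGES differed from JGE in 4 of 8 genes (Fgf4 and Fgf8 higher, Fgfr2 and Spry4 lower; 20.1% of all genes higher, 16.9% lower). JGEO differed from JGE in 2 of 7 (Fgf4 and Etv5 higher; 10.2% and 11.9%). With BMP4, JGES differed from JGE in 3 of 6 (Fgfr1 higher, Fgfr2 and Etv5 lower; 12.1% and 11.1%). These comparisons share the JGE libraries. Other cell type markers differed between the sets too. The 6 macrophage markers (C1qa, C1qb, Ptprc, Csf1r, Lyz2 and Tyrobp) summed to 165 and 115 FPKM without and with BMP4 in JGE, 90.0 and 95.6 in JGEO, 41.9 and 98.6 in JGESO, and 1.36 and 2.32 in JGES, with 4 of the 6 at 0 in each JGES library. The 6 PrE markers summed to 18.9 and 15.4 FPKM in JGE, 44.6 and 57.9 in JGEO, 355 and 292 in JGESO, and 70.0 and 152 in JGES. The part of these markers' cells in the differences between the sets was not tested.

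**Figure D2:**
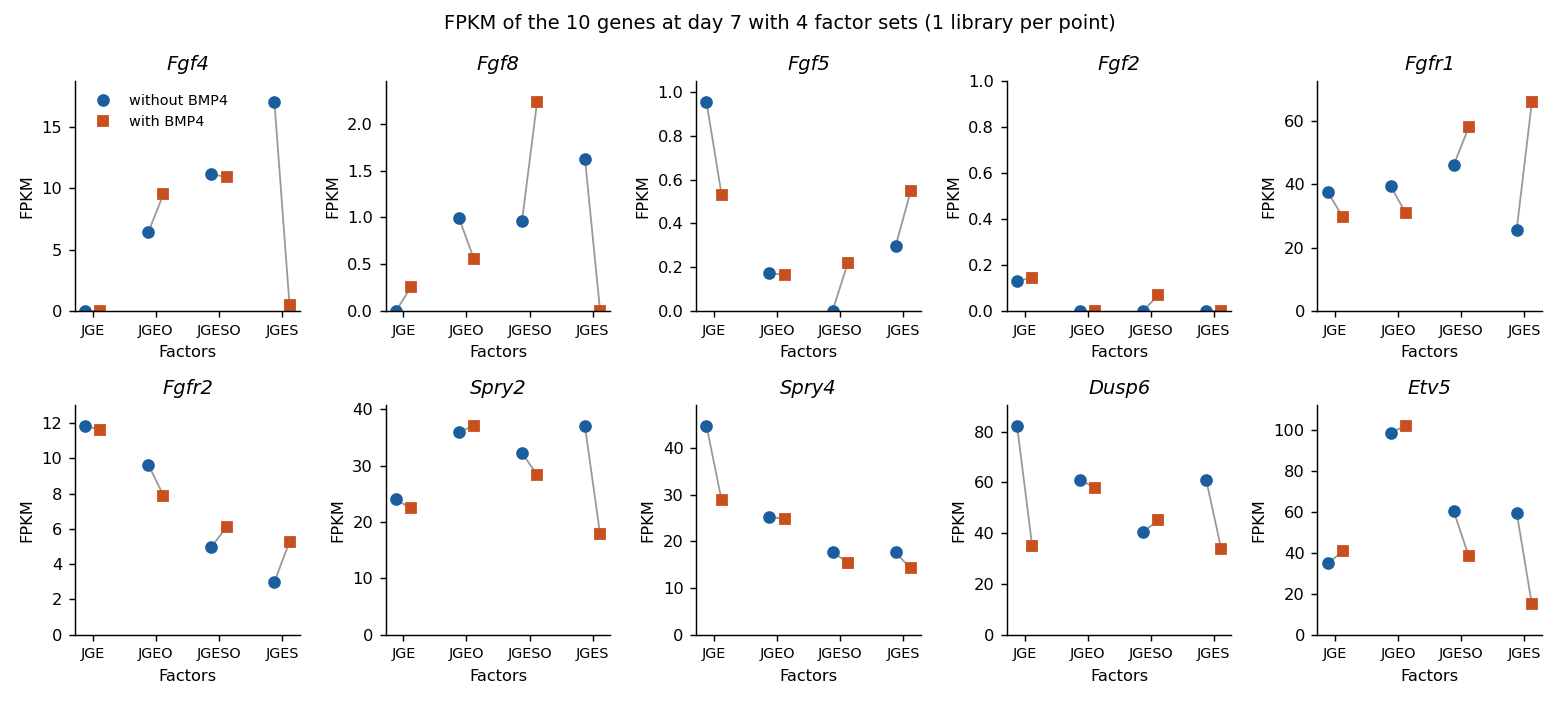
FPKM of the 10 genes (y axis, linear, own scale per panel) at day 7 for 4 factor sets (x axis), without BMP4 (blue circles) and with BMP4 (orange squares), 1 library per point, with a grey line joining the libraries of a set. Fgf4 is 17.04 FPKM without and 0.453 with BMP4 in JGES and lies between 6.42 and 11.1 in JGEO and JGESO.

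The scRNA-seq samples were JGES cells of day 7, 11335 cells with BMP4 (median 21205 UMIs per cell) and 8685 without (median 12738), and they share 2 cell barcodes. The cell types are those the authors deposited, with their label ParE read here as PrE cell-like cells (PrECLCs). The markers were high under these names: the 6 pluripotency markers summed to 6844 CPM in pluripotent cells, the 6 PrE markers to 1308 CPM in PrECLCs with BMP4, and the 6 endothelial markers to 658 CPM in endothelial cells with BMP4. The pluripotency markers here include Esrrb, a delivered factor that was left out of the bulk sums. UMIs were summed over the cells of a type and scaled to the type's total (CPM) with exact Poisson 95% intervals, and genes with at least 20 UMIs in both sums together were counted past 2-fold. The median gene was higher with BMP4 by 0.43 to 0.49 on the log2 scale in the comparisons between the samples, so a gene at an equal CPM lay below the median gene.

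The pluripotent cells, found only without BMP4 (1825 cells), held nearly all Fgf4. Of 1386 Fgf4 UMIs in that sample, 1255 were in pluripotent cells, 42.3 CPM (39.98 to 44.7), and 666 of the 1825 cells had at least 1 UMI (36.5%, exact binomial interval 34.3 to 38.7), or 13.4% with every cell thinned to 4000 UMIs. Intermediate cells of the same sample had 106 UMIs, 1.27 CPM (1.04 to 1.54), in 101 of 6211 cells (1.63%, thinned 0.547%), and endothelial cells 23 UMIs, 2.73 CPM (1.73 to 4.10). The pluripotency markers stood at 287 CPM in intermediate and 288 CPM in endothelial cells of this sample, against 6844 in pluripotent cells. Whether the Fgf4 UMIs of intermediate and endothelial cells came from those cells was not tested. With BMP4 the same markers were 31.4 and 36.0 CPM in these types, and their part in the Fgf4 ratios within them (12.1-fold and 23.9-fold lower with BMP4) was not tested. With BMP4, all 11335 cells held 22 Fgf4 UMIs, 0.0817 CPM (0.0512 to 0.124). The 2372 PrECLCs held 0 Fgf4 UMIs (exact interval 0 to 0.0600 CPM), where 3 UMIs would be 0.0488 CPM.

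Fgf8 had another pattern. Without BMP4 it was highest in intermediate cells, at 13.01 CPM (12.2 to 13.8), and lower in endothelial cells, at 4.04 CPM (2.80 to 5.64), and pluripotent cells, at 2.53 CPM (1.99 to 3.17). The 1082 Fgf8 UMIs of the intermediate cells came from 298 of 6211 cells (4.80%), so that the counts were concentrated in a minority of cells. With BMP4 it was 2.55 CPM (2.31 to 2.80) in intermediate cells, 5.11-fold lower (4.56 to 5.74), and 6.74 CPM (5.34 to 8.38) in placenta-like cells. Fgf4 and Fgf8 thus stood highest in different annotated types of the same sample. Fgf5 held 16 UMIs without and 29 with BMP4 over all cells. Fgf2 held 24 and 218, 0.195 CPM (0.125 to 0.290) and 0.810 CPM (0.706 to 0.924), which is 4.15-fold higher with BMP4 (2.72 to 6.62).

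Fgfr1 was 128 CPM (126 to 130) in intermediate cells with BMP4 and 44.9 CPM (43.4 to 46.3) without, 2.85-fold higher (2.75 to 2.95). It was 107 CPM (102 to 113) in placenta-like cells, and 23.8 CPM (22.6 to 25.1) in PrECLCs and 25.8 CPM (24.2 to 27.6) in endothelial cells of that sample. Without BMP4 it was 22.9 CPM (21.3 to 24.7) in pluripotent cells. Intermediate and placenta-like cells with BMP4 thus stood apart from the other types, which lay between 14.8 and 44.9 CPM. Fgfr2 was 15.2 CPM (14.6 to 15.8) in intermediate cells with BMP4 and 5.17 CPM (4.69 to 5.68) without, 2.93-fold higher (2.65 to 3.26). The 6 fibroblast markers, at 1097 CPM with and 217 CPM without BMP4 in intermediate cells, moved with both receptors, and their part was not tested. In PrECLCs, Fgfr2 was 12.96 CPM (12.1 to 13.9) with BMP4 and 18.0 CPM (12.5 to 25.1) without, where the sample had 142 such cells and 34 Fgfr2 UMIs. It was lowest in pluripotent cells, 1.85 CPM (1.396 to 2.41), and in endothelial cells, 2.26 CPM (1.79 to 2.82) with and 1.90 CPM (1.09 to 3.09) without BMP4. In PrECLCs, Fgfr2 was thus close to its level in intermediate cells with BMP4, whereas Fgfr1 was 5.37-fold lower (5.09 to 5.66).

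Etv5 went with the pluripotent cells and Dusp6 with the intermediate cells. Etv5 was 63.6 CPM (60.8 to 66.6) in pluripotent and 23.1 CPM (22.1 to 24.2) in intermediate cells without BMP4, a ratio of 2.75 (2.58 to 2.94). Dusp6 was 7.35 CPM (6.403 to 8.39) and 29.5 CPM (28.4 to 30.7) in the same types, 4.02-fold lower in pluripotent cells (3.50 to 4.64). Spry4 was 2.42-fold lower there (1.86 to 3.18), though not past 2-fold with every cell thinned to 4000 UMIs, and Spry2 was 1.34-fold lower (1.23 to 1.45), inside 2-fold.

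Etv5 and Dusp6 were lower with BMP4 inside the intermediate cells as well. Etv5 was 9.92 CPM (9.44 to 10.4) there with BMP4, 2.33-fold lower (2.18 to 2.49), and Dusp6 10.7 CPM (10.2 to 11.3), 2.75-fold lower (2.59 to 2.93). In PrECLCs, Etv5 was 7.06 CPM (6.42 to 7.76) with and 22.7 CPM (16.5 to 30.6) without BMP4, and Dusp6 2.62 CPM (2.23 to 3.06) and 12.7 CPM (8.13 to 18.9). In endothelial cells Etv5 was 2.23 CPM (1.76 to 2.79) and 10.9 CPM (8.81 to 13.4), 4.89-fold lower with BMP4 (3.58 to 6.70). Etv5 was therefore past 2-fold lower in each of the 3 annotated types present in both samples. The annotated types were not alike in the 2 samples: the fibroblast markers differed in intermediate cells, as given above, and the pluripotency markers summed to 26.4 CPM with and 863 CPM without BMP4 in PrECLCs, and the part of these in the Etv5 and Dusp6 differences was not tested. Spry2 was 30.1 CPM (29.3 to 31.0) with and 33.6 CPM (32.4 to 34.9) without BMP4 in intermediate cells, and Spry4 8.41 CPM (7.97 to 8.87) and 5.37 CPM (4.89 to 5.90).

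**Figure D3:**
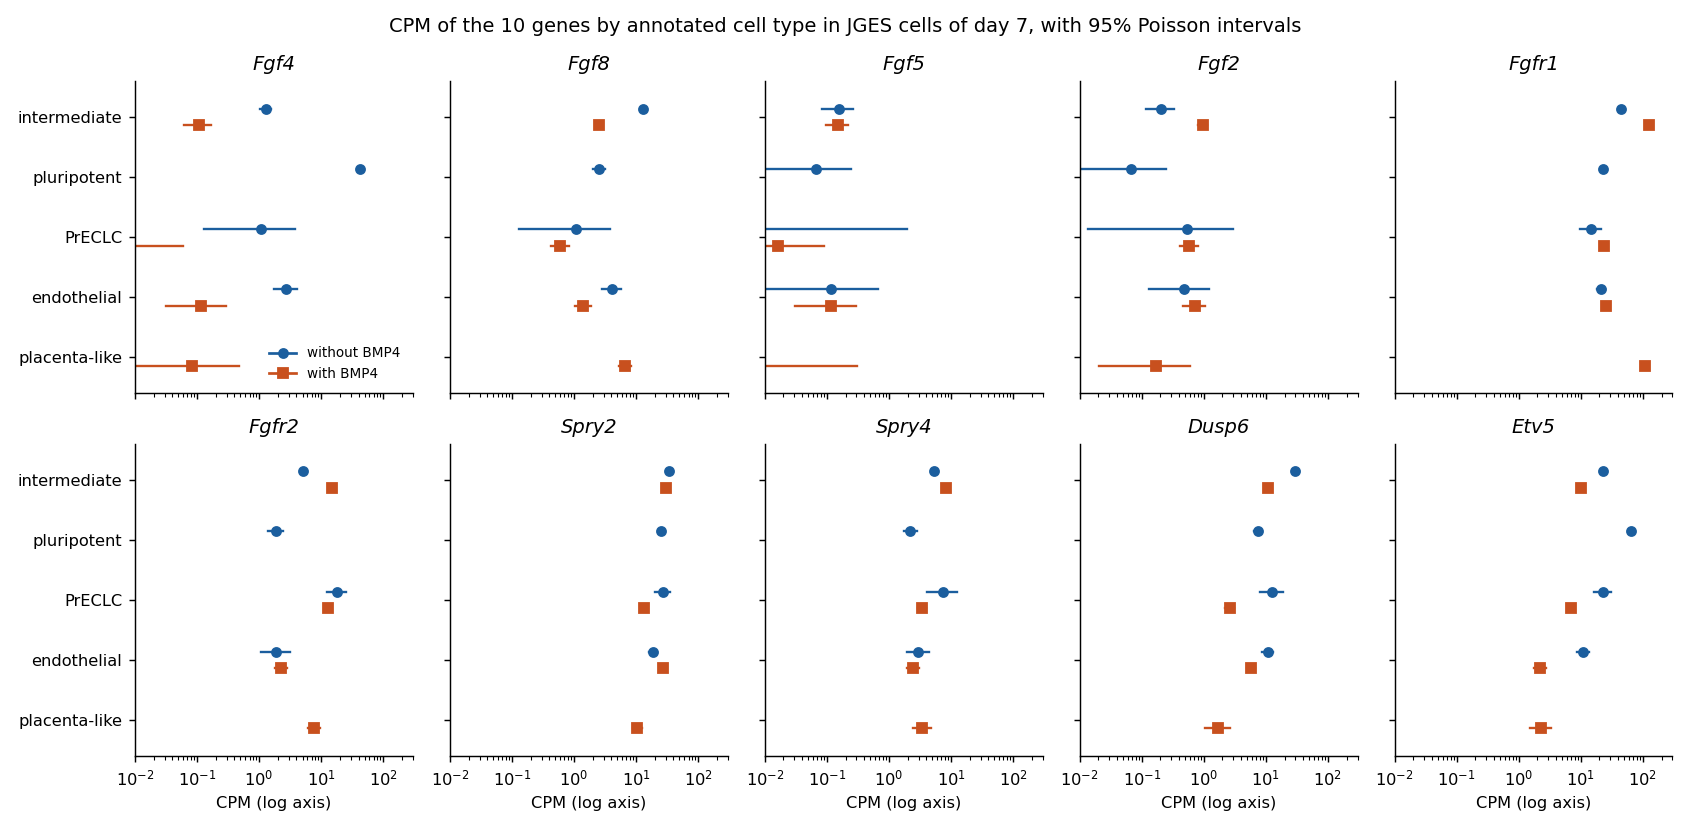
CPM of the 10 genes (x axis, log scale) by annotated cell type (y axis) in JGES cells of day 7, without BMP4 (blue circles) and with BMP4 (orange squares), with exact Poisson 95% intervals as bars. A type with no UMI of a gene has an interval and no point, and intervals are drawn from 0.01 CPM. Fgf4 stands at 42.3 CPM in pluripotent cells and at 2.73 CPM or below in all other types, and Etv5 is lower with BMP4 in intermediate cells, PrECLCs and endothelial cells.

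Over all cells, 7 of 10 genes passed 2-fold with BMP4, with Fgf2, Fgfr1 and Fgfr2 higher (30.6% of all genes tested) and Fgf4, Fgf8, Dusp6 and Etv5 lower (12.2%). With the sums scaled to an equal median gene, Fgfr1 did not pass, which left 2 higher and 4 lower. The bulk libraries of day 7 had the same direction for Fgf4, Fgf8, Fgfr1, Fgfr2, Spry2, Dusp6 and Etv5. Spry4 was lower in bulk, and its ratio over all cells was 1.4 (1.27 to 1.54), about that of the median gene (0.49 on the log2 scale). In intermediate cells the same 7 genes passed in the same directions (30.7% of all genes higher and 10.4% lower), with Fgf4 under the limit given above. In endothelial cells 3 of 9 passed, Fgf4, Fgf8 and Etv5 all lower (24.9% of all genes higher, 7.06% lower), of which Etv5 alone passed with cells thinned to 4000 UMIs or with a minimum of 100 UMIs. In PrECLCs it was 3 of 8, Spry4, Dusp6 and Etv5, all lower (23.5% and 7.35%). Scaled to an equal median gene, Dusp6 joined in endothelial cells and Fgf8 and Spry2 in PrECLCs. Against intermediate cells, pluripotent cells had 2 of 8 genes higher (Fgf4, Etv5; 14.2% of all genes) and 4 lower (Fgf8, Fgfr2, Spry4, Dusp6; 22.8%). Within the BMP4+ sample, 6 of 9 were lower in PrECLCs than in intermediate cells (Fgf8, Fgf5, Fgfr1, Spry2, Spry4, Dusp6; 12.9% of all genes higher, 27.7% lower), and 4 of 10 in endothelial cells (Fgfr1, Fgfr2, Spry4, Etv5; 10.8% and 26.2%). Fgf5 passed in PrECLCs on 1 UMI against 24 in intermediate cells, 9.16-fold lower (1.49 to 377). Placenta-like cells had Fgf8 higher (13.8%) and 5 of 9 lower (Fgf2, Spry2, Spry4, Dusp6, Etv5; 20.6%), with Fgf2 at 2 UMIs and the 80 Fgf8 UMIs in 11 cells. With every cell thinned to 4000 UMIs, Fgf2 and Spry4 were not past 2-fold there and Fgfr2 was lower.

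MEFs with SALL4-WT or SALL4-delN12 alone were followed from day 1 to day 11 without BMP4, to compare SALL4 with and without its NuRD-binding end. Dusp6 was past 2-fold higher with SALL4-WT on 3 of the 4 days, Fgf2 was read mostly with SALL4-WT, and Fgf4 was past 2-fold higher with SALL4-delN12 at days 5 and 9. Dusp6 was 21.5, 70.4, 103 and 55.9 FPKM at days 1, 5, 9 and 11 with SALL4-WT and 14.7, 20.8, 20.5 and 20.7 with SALL4-delN12. From day 5 all SALL4-WT values lay above all SALL4-delN12 values, with log2 differences of -1.71, -2.27 and -1.39 at days 5, 9 and 11. Etv5 was 2.43, 7.16, 9.28 and 6.58 FPKM with SALL4-WT and 4.27, 5.91, 6.92 and 4.25 with SALL4-delN12, and passed 2-fold between the forms on no day. Spry2 was 9.37, 6.42, 10.1 and 8.77 FPKM with SALL4-WT and 2.71, 5.36, 5.41 and 7.57 with SALL4-delN12, past 2-fold at day 1 (-1.48). Spry4 was 8.74, 7.79, 15.4 and 6.55 against 14.8, 5.43, 8.03 and 3.88 FPKM, and passed 2-fold on no day.

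Fgf4 was listed at 0 at day 1 with SALL4-WT and was 0.0441, 0.174 and 1.60 FPKM at days 5, 9 and 11, or about 1, 5 and 42 fragments. With SALL4-delN12 it was 0.224, 2.09, 1.42 and 0.986 FPKM at days 1, 5, 9 and 11, or about 6, 58, 42 and 26.5 fragments. The ratio of SALL4-delN12 to SALL4-WT was 47.3 at day 5 (8.16 to 1901) and 8.18 at day 9 (3.24 to 26.5), and at day 11 it was 0.618 (0.373 to 1.04), an interval that holds 1. The early excess with SALL4-delN12 was thus not present at day 11. Fgf8 was listed at 0 at day 1 with both forms, and then 0.195, 0.191 and 2.35 FPKM with SALL4-WT and 0.556, 1.34 and 2.01 with SALL4-delN12. Its ratio was 7.02 at day 9 (2.74 to 22.9) and 0.857 at day 11 (0.572 to 1.28).

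Fgf2 was 0.332, 0.484, 1.41 and 1.19 FPKM with SALL4-WT, or about 5, 7, 26 and 20 fragments. With SALL4-delN12 it was 0.0584 and 0.0530 FPKM at days 1 and 9 (1 fragment each) and listed at 0 at days 5 and 11. At day 9 it was 26.7-fold lower with SALL4-delN12 (4.38 to 1094), and at day 1 5.69-fold lower with an interval from 0.637 to 269. Fgf5 lay between 0 and 0.205 FPKM with SALL4-WT and between 0.0451 and 0.261 with SALL4-delN12. Fgfr1 was 55.9, 44.5, 46.9 and 52.0 FPKM with SALL4-WT and 59.2, 79.7, 71.8 and 69.4 with SALL4-delN12. Fgfr2 was 2.84, 4.38, 3.90 and 5.45 against 4.08, 8.80, 6.60 and 10.6 FPKM. Both receptors were higher with SALL4-delN12 on all 4 days, and neither passed 2-fold.

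**Figure D4:**
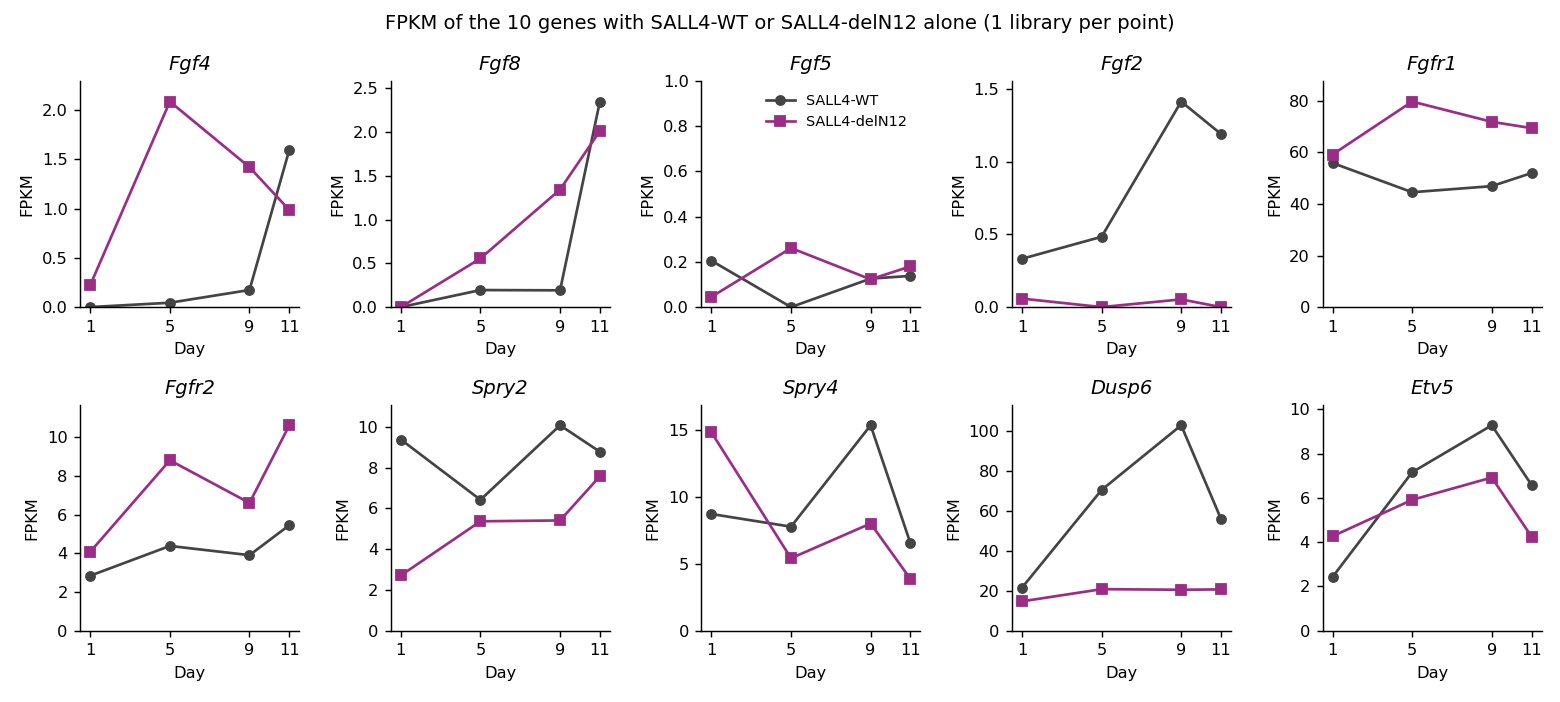
FPKM of the 10 genes (y axis, linear, own scale per panel) against the day (x axis) in MEFs with SALL4-WT (grey circles) or SALL4-delN12 (purple squares) alone, 1 library per point. Dusp6 reaches 103 FPKM with SALL4-WT and lies between 14.7 and 20.8 with SALL4-delN12, Fgf2 is read mostly with SALL4-WT, and Fgf4 is higher with SALL4-delN12 at days 1, 5 and 9.

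Past 2-fold between the forms were 1 of 6 genes at day 1 (Spry2 lower with SALL4-delN12; 4.18% of all genes higher, 5.63% lower), 2 of 7 at day 5 (Fgf4 higher, Dusp6 lower; 4.67% and 5.19%), 3 of 9 at day 9 (Fgf4 higher, Fgf2 and Dusp6 lower; 6.09% and 5.75%) and 2 of 9 at day 11 (Fgf2 and Dusp6 lower; 6.55% and 6.58%). From day 1 to day 11, Fgf4, Fgf8, Dusp6 and Etv5 were higher with SALL4-WT (4 of 9 genes; 11.5% of all genes higher, 8.76% lower). With SALL4-delN12, Fgf8, Fgfr2 and Spry2 were higher and Spry4 lower (4 of 7; 10.4% and 4.61%). Over the 4 days with the day as a block, 2 of 9 genes had an adjusted p under 0.05 (limma, where 5.13% of all genes were called higher and 6.76% lower). Dusp6 differed by -1.47 on average (-2.13 to -0.81, limma adjusted p = 0.0244, lower with SALL4-delN12 on 4 of 4 days). Fgfr2 differed by 0.69 (0.39 to 0.98, limma adjusted p = 0.0220, higher on 4 of 4 days). Neither was called without day 5, without day 9, without day 11 or with no filter on low values, and without day 1 Fgfr1 (higher), Fgf2 and Spry4 (both lower) were called as well, beside 9.02% of all genes higher and 10.1% lower. The 6 macrophage markers summed to 335, 174, 152 and 177 FPKM with SALL4-WT and 338, 418, 478 and 1005 with SALL4-delN12. The 6 PrE markers summed to 14.7, 12.1, 15.6 and 19.4 FPKM with SALL4-WT and 11.1, 15.4, 60.3 and 171 with SALL4-delN12. The 5 pluripotency markers summed to at most 0.415 FPKM with SALL4-WT and 5.55 with SALL4-delN12. Esrrb, which was not delivered to these cells and is not among the 5, was higher with SALL4-delN12 on each day. It was 0.0250, 1.85, 1.82 and 2.00 FPKM with SALL4-WT and 1.46, 21.0, 15.5 and 6.49 with SALL4-delN12. The 6 placenta-like markers (Krt8, Krt18, Tfap2c, Spint1, Cdx2 and Elf5) summed to 107, 108, 143 and 131 FPKM with SALL4-WT and 645, 640, 661 and 519 with SALL4-delN12. The number of them at 1 FPKM or more was 3, 4, 4 and 4 with SALL4-WT and 3, 5, 5 and 5 with SALL4-delN12. The 6 fibroblast markers summed to 1221 and 2489 FPKM with SALL4-WT and SALL4-delN12 at day 1, and to between 1984 and 2532 in the later libraries. The part of these markers' cells in the differences between the forms was not tested.

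Chromatin at the 10 genes was read from peak lists for the SALL4-alone cells, ATAC-seq of MEFs and of days 1, 5, 9 and 11, and Cut&Tag of the histone mark H3K27ac, found at active promoters and enhancers, and of SALL4 at day 6. Each list came from 1 condition, and a peak counted for a gene when it touched 2 kb to either side of a coding start. The score is the log10 of the peak's p-value times minus 10, and 50 was the lowest listed. The receptors and feedback genes had open promoters in every library, whereas Fgf4 and Fgf8 had nearly none. Fgfr1, Fgfr2, Spry2, Spry4, Dusp6 and Etv5 had an ATAC peak in all 9 libraries (6 of 10; 54.7% of all protein-coding genes). Fgf8 had no promoter peak in any list, and Fgf4 had 1, with SALL4-WT at day 9, at chr7:144861916-144862052 with a score of 50.8. By library, 8 of the 10 genes had an ATAC peak in MEFs (68.6% of protein-coding genes), 8, 8, 9 and 8 with SALL4-WT at days 1, 5, 9 and 11 (62.4%, 66.6%, 66.0% and 66.4%) and 6, 7, 8 and 7 with SALL4-delN12 (60.3%, 62.2%, 63.7% and 64.2%).

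Dusp6 had a promoter H3K27ac peak with SALL4-WT and none with SALL4-delN12. The peak covered chr10:99260842-99265732 at a score of 246, and the list of SALL4-delN12 was the longer of the pair (45599 against 19841 peaks). This was so for 1 of the 10 genes and for 1.22% of all protein-coding genes, while 10.5% had a promoter H3K27ac peak with SALL4-delN12 and not with SALL4-WT. The GATA letters printed in capitals above lie under the SALL4-WT peak. The ATAC scores at this promoter were 608, 877, 706 and 1242 with SALL4-WT and 935, 871, 720 and 626 with SALL4-delN12, and the SALL4 scores were 337 and 200, so the promoter was open and listed for SALL4 with both forms. Within 50 kb of the start, H3K27ac had 1 peak with SALL4-WT and 6 with SALL4-delN12, the strongest of them at chr10:99227822-99230329 (score 253). Whether the missing peak goes with the lower Dusp6 RNA was not tested.

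At Spry2, SALL4 had a promoter peak with SALL4-WT (chr14:105895725-105899408, score 180) and none with SALL4-delN12, as for 16.6% of all protein-coding genes, while 3.15% had the reverse. H3K27ac was listed there with both forms, at 152 and 238. The printed Spry2 sequence lies within the SALL4 peak, and its promoter entry holds an ETS match 33 bases past the start. SALL4 promoter peaks were found at 7 of 10 genes with SALL4-WT (54.2% of protein-coding genes) and at 6 with SALL4-delN12 (40.8%). H3K27ac promoter peaks were found at 7 (49.5%) and 6 (58.8%). For Fgfr2 the SALL4-WT peak lies at the distant start beside Ctbp2, and without that start 6 genes had one.

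Fgf2 had ATAC promoter peaks in MEFs and at all 4 days with SALL4-WT. With SALL4-delN12 it had 1, at day 9, at -1803 bp from the start and with a score of 57.3. A gene with a promoter peak in MEFs and on all 4 SALL4-WT days but on at most 1 SALL4-delN12 day was found in 0.769% of all protein-coding genes, and this pattern was singled out after its values were seen. The 4 days with SALL4-WT shared a stretch of 145 bases upstream of the start, which the MEF peaks did not cover. The MEF peak and the peaks of the 4 SALL4-WT days also shared chr3:37348309-37348401 over the start, and no list with SALL4-delN12 had an ATAC peak in either stretch. The upstream stretch is printed as the one listed on the SALL4-WT days and not in MEFs. It is read from GRCm38.p6 on the plus strand and held none of the 5 motifs.
Fgf2, chr3:37347933-37348077: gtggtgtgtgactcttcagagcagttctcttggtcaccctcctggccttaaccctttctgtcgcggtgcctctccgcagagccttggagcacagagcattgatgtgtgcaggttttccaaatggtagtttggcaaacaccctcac

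H3K27ac at the Fgf2 promoter was listed at 56.0 with SALL4-WT and at 173 with SALL4-delN12, in lists of unequal length. SALL4 had a peak over the start with SALL4-WT (score 134) and one at -1477 bp with SALL4-delN12 (score 85.5). Fgf5 had ATAC promoter peaks in 8 libraries, with a score of 324 in MEFs, 52.7 to 184 with SALL4-WT and 70.4 to 100.4 with SALL4-delN12, and none at day 1 with SALL4-delN12. Around Fgf4, within 50 kb, SALL4 had 4 peaks with SALL4-WT (highest score 158) and none with SALL4-delN12, and H3K27ac had none with either form. The 4 SALL4 peaks lay at -49307, 11640, 13665 and 21601 bp from the start. How common this pattern is over all genes at this width was not counted. At promoters, 16.6% of protein-coding genes had a SALL4 peak with SALL4-WT and not with SALL4-delN12. Around Fgf8, H3K27ac was listed with both forms at -5276 and -5379 bp (161 and 245) and at -39307 and -39231 bp (436 and 547). With SALL4-delN12 it was also listed at 5524 bp (53.3). The peaks around Fgf4 and Fgf8 were placed by distance only, and whether they belong to neighbouring genes was not tested.

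**Figure D5:**
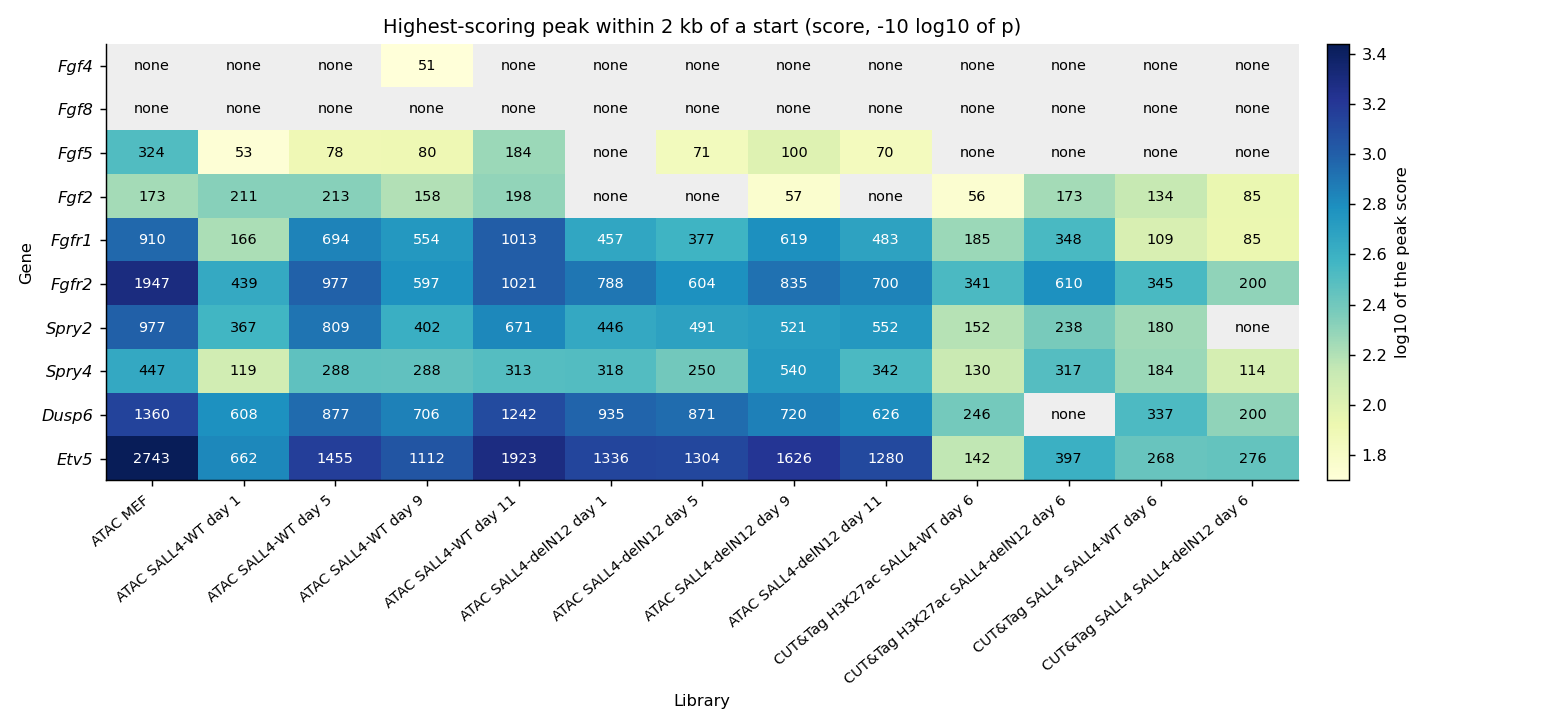
Highest score of a peak within 2 kb of a coding start for the 10 genes (rows) in 9 ATAC-seq and 4 Cut&Tag lists (columns), with colour giving log10 of the score the score printed in each cell and grey cells having no peak. Fgf4 and Fgf8 are nearly empty, Fgf2 is empty in 3 of the 4 ATAC-seq libraries with SALL4-delN12, and Dusp6 lacks H3K27ac with SALL4-delN12.

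The genes most like each member were sought by Pearson correlation of log2(FPKM+1) over the 17 libraries of JGES and SALL4-alone cells, among 12351 genes that reached 5 FPKM. These libraries differ in factors and depth together, so the values describe likeness only. For Fgf4 they were C130073F10Rik (r = 0.93), AU018091 (0.92) and Gm9631 (0.92), and for Fgf8 Rpp25 (0.87), Sox15 (0.86) and Ckmt1 (0.83). For Etv5 they were Greb1l (0.97), Tab3 (0.97) and Sox2 (0.97), the last a pluripotency transcription factor. For Fgfr1 they were Nudt18, Atg7 and Fam195b (0.90 to 0.92), and for Fgfr2 Tceal8, Bmp4 and St3gal5 (0.83 to 0.86). Bmp4 here is the cells' own RNA and not the added protein. For Spry2 they were Kmt2d, Phf13 and Arhgap32 (0.96), for Spry4 Sh2b3, Ampd2 and Rrs1 (0.93 to 0.94), and for Dusp6 Sh3rf1, Gm40847 and Mospd2 (0.86 to 0.91). No member was among the 3 genes most like another member, and Fgf5 and Fgf2 did not reach 5 FPKM.

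Of the other genes of the pathway, 57 were listed: 18 ligands, 5 receptors and co-receptors, 18 relay proteins and 16 further feedback genes and targets. With BMP4 in JGES at day 7, Etv4, the close relative of Etv5, was 11.2 against 39.8 FPKM, and Il17rd, which encodes the membrane antagonist SEF, was 7.71 against 32.8. Both were lower, as Etv5 was, together with Dusp4, so that 3 of 16 feedback genes and targets were past 2-fold lower and 1 higher (Flrt3), beside 13.8% and 10.3% of all genes. Of 7 ligands tested, Fgf1, Fgf11 and Fgf18 were higher and Fgf17 lower (2.26 against 8.51 FPKM), of 4 receptors Fgfr3 and Fgfr4 were higher (Fgfr4 6.62 against 0.696 FPKM), and of 18 relay proteins 1 was lower (Gab1). In JGE, 2 of 15 feedback genes and targets were lower and 0 higher (4.78% and 4.28% of all genes), Spry1 at 47.1 against 109.8 FPKM and Flrt3 at 1.91 against 5.59, while Fgfr3 was higher at 6.20 against 0.615 FPKM. In JGEO 1 of 44 listed genes tested passed and in JGESO 1 of 41, Fgf15 (lower, beside 1.95% of all genes) and Ptpn11 (higher, 19.7 against 8.67 FPKM, beside 5.29%).

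In intermediate cells, Fgf18 was 41.0 CPM with and 7.502 CPM without BMP4, Etv4 9.61 and 41.3 CPM, and Il17rd 5.46 and 25.03 CPM. Etv4 and Il17rd were the 2 of 15 further feedback genes that were lower there (10.4% of all genes), while Egr1 was higher, and of 18 relay genes 5 were higher, Braf at 64.3 against 16.7 CPM, and 1 lower (30.7% and 10.4%). With BMP4 in PrECLCs, 2 of 15 were higher (Dusp5 and Egr1) and 2 lower (Spry1, Dusp4). In endothelial cells 3 were higher (Egr1, Flrt3, Myc) and 4 lower (Spry1, Etv1, Etv4, Il17rd). Egr1 was 30.6 CPM with and 6.88 without BMP4 in PrECLCs, and 41.5 and 9.50 in endothelial cells. The shares of all genes for both types are given above. Pluripotent cells had 9 of 15 further feedback genes lower than intermediate cells (22.8% of all genes) and 0 higher (14.2%), with Phlda1 at 25.2 against 171 CPM and Spred1 at 15.2 against 63.2 CPM. Egr1 was 8.997 against 23.9 CPM there, and the relay gene Gab1 21.7 against 8.51 CPM. PrECLCs with BMP4 held Klb, the β-Klotho co-receptor, at 30.9 CPM against 0.410 CPM in intermediate cells, and Flrt3 at 101 against 16.1 CPM, while Fgf18 was 4.12 against 41.0 CPM and Ier3 17.9 against 101 CPM. Of 13 further ligands 9 were lower and 0 higher, and of 15 feedback genes 6 were lower and 1 higher (27.7% of all genes lower, 12.9% higher). Endothelial cells with BMP4 held the ligand gene Fgf3 at 71.8 CPM against 2.42 CPM in intermediate cells, while Fgf18 was 5.98 against 41.0 CPM. There 2 of 13 further ligands were higher and 9 lower (10.8% and 26.2% of all genes), Ier3 was 29.5 against 101 CPM and Flrt3 45.7 against 16.1 CPM. With SALL4-delN12 against SALL4-WT, Egr1, an immediate-early ERK target, was 12.3 against 58.4 FPKM at day 5 and 6.72 against 52.3 at day 9, lower as Dusp6 was, while Dusp7 (32.0 against 14.7 FPKM) and Fgf21 (8.23 against 1.31) were higher at day 5. At day 9 Myc (1.88 against 8.64 FPKM), Dusp5 (5.50 against 19.3) and Fgf18 (3.06 against 8.28) were lower too. At day 1 Fgf21 (10.2 against 0.202 FPKM), Fgf15 (8.40 against 0.0355) and Dusp7 (36.3 against 9.93) were higher and Ier3 (202 against 487) lower. At day 11 Fgfr4 (8.06 against 0.210 FPKM), Flrt3 (9.19 against 2.00) and Fgf11 (6.36 against 2.08) were higher and Fgf7 (0.338 against 6.81) lower. Of the further feedback genes and targets, 3 of 14 were lower and 1 higher at day 1 (5.63% and 4.18% of all genes), 1 and 1 of 14 at day 5 (5.19% and 4.67%), 4 and 1 of 16 at day 9 (5.75% and 6.09%) and 2 and 1 of 16 at day 11 (6.58% and 6.55%).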

How the data were processed

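The authors' FPKM values, as deposited, came from StringTie 2.2.1 after Trim Galore 0.6.4 and HISAT2 2.2.1 on mm10. The deposited UMI counts per cell came from STARsolo with GENCODE vM21, after the authors filtered cells with Scanpy. Peaks, with the deposited MACS score, came from Bowtie2 2.4.5, SAMtools 1.16.1 and MACS 1.4.2, with Cut&Tag replicates merged before calling. Of the cell columns, 10749 belong to other cells and were not used.

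The 10 genes and all lists were chosen with earlier results of these data known. Named pathway genes are taken from the 4 with the largest difference past 2-fold per comparison, at 5 FPKM or 20 CPM or more, and those listed beside small counts were named after their values were seen. Likeness names the 3 genes with the highest Pearson r. Every condition has 1 deposited sample, so the only test was limma 3.58.1 (R 4.3.3) over day-matched libraries, with the day as a block, trended variance and Benjamini-Hochberg adjustment, chosen after seeing the data. Other intervals (95%, exact) cover counting error only. No doublet caller was run. Promoters reach 2 kb to either side of GENCODE vM21 protein-coding starts (21840 genes). Alternatives were another pseudocount, filter, scaling, thinning, promoter width and score. Python 3.11.15, numpy 2.4.6, scipy 1.17.1 and pandas 2.3.3 were used.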

Additional observations from a re-analysis of the deposited data

Results flagged for a closer look

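Each result here was past 2-fold in one context and had a value of the other sign in another under the same contrast. With 1 sample per condition, none of these differences between contexts was tested. On the log2 scale, Fgf4 differed with BMP4 by -3.66 in JGES at day 7 and by 0.51 in JGEO. Fgf8 differed with BMP4 by -1.41 in JGES at day 7, where it was listed at 0 with BMP4, and by 0.72 in JGESO. Fgfr1 differed with BMP4 by 1.33 in JGES, by -0.33 in JGE and by -0.345 in JGEO. Fgf4 with SALL4-delN12 against SALL4-WT differed by 1.56 at day 5 and 1.04 at day 9, and by -0.39 at day 11. The counting interval of its day 11 ratio holds 1. In the scRNA-seq samples, Fgfr2 differed with BMP4 by 1.55 in intermediate cells and by -0.47 in PrECLCs, of which the sample without BMP4 held 142. The CPM intervals of Fgfr2 in PrECLCs with and without BMP4 overlap. Spry4 differed by -1.12 in PrECLCs and by 0.65 in intermediate cells, and its PrECLC value without BMP4 rests on 14 UMIs.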

How the results depend on the processing

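The labels give each condition 1 sample, so libraries were paired by day only, and days, not replicates, were left out. With the day as a block, the number of genes called ranged from 0 to 3 for BMP4 in JGES (0 with all days) and from 0 to 5 for SALL4-delN12 against SALL4-WT (2 with all days) when each day was left out in turn, and the second was 0 with no filter on low values. Of 113 recomputed counts of genes called or with a promoter peak, 101 stayed within 1.5 times the reported count, and of 294 recomputed values of single genes, 275 kept their call or moved little, 19 moved, and none turned direction. For BMP4 in JGESO, a pseudocount of 0.1 gave 1 gene (Fgf8, higher) in place of 0. For BMP4 in endothelial cells, 3 genes became 1 with cells thinned to 4000 UMIs and 1 with a minimum of 100 UMIs. For BMP4 in PrECLCs, 3 genes became 5 without the 6% of cells with the most UMIs, 6 with the mean of each cell's CPM, and 5 with sums scaled to an equal median gene, a scaling chosen after seeing the data. The cause was not tested. Depth limits the values of Fgf5 and Fgf2, which rest on few fragments or UMIs in nearly all libraries.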
